A study of Mus musculus with 15 samples.

Results

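DNA replication and S phase genes were followed in whole adrenal glands of wild-type C57BL/6J male mice as the gland recovered from dexamethasone. The set has 42 genes, listed by symbol, and all 42 were found among the 21439 genes with an unambiguous probe set on the arrays. Between them they have 44 probe sets, and the probe set with the highest mean was used for each gene. The glands came from 4 groups. The control group (4 arrays) was taken before any treatment. The withdrawal group (3 arrays) had drunk dexamethasone in its water for 14 days and was taken as the drug was stopped. The day 3 and day 7 groups (4 arrays each) were taken 3 and 7 days after the same 14 days of treatment ended. All mice are labelled as 6 weeks old. Each array is titled a biological replicate, and whether a gland was pooled with others is not given in the sources used here. Controls received no vehicle course of their own that the labels describe, so treatment, recovery and elapsed days go together in any comparison with control.

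Before S phase, the origin recognition complex, Cdc6 and Cdt1 load the ring of Mcm2 to Mcm7 onto DNA, and geminin (Gmnn) blocks Cdt1 afterwards. Kinases then recruit Cdc45 and the GINS complex to switch the ring into a moving helicase, and primase, the polymerases, the sliding clamp PCNA and its loader RFC copy the strands. Many of these genes are transcribed in late G1 under E2F factors, so their RNA is widely used as a sign of cells entering the cycle. Dexamethasone is a glucocorticoid drug that suppresses ACTH, the pituitary hormone that maintains the inner adrenal cortex, and the cortex shrinks under it and regrows once it is stopped.

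The values are log2 expression after RMA, the robust multi-array average. A group level is a mean ± SD, a difference is in log2 units ± the standard error of the limma model, and a gene is called at an adjusted p under 0.05 over all genes. The median gene had a mean level of 2.44, and levels at or under it are called near the floor, where a fall has little room. There 9 of the 42 members had their mean: Orc1, Mcm10, Chaf1b, Pole, Cdc6, Dtl, E2f1, Fen1 and Gins3. Array medians over all probe sets ran from 1.55 to 1.64, and each array correlated at 0.988 to 0.991 on average with the others of its group. The 7 adrenal cortex markers (Cyp11a1, Cyp11b1, Cyp21a1, Star, Nr5a1, Mc2r and Hsd3b1) all lay above the floor, at a mean of 8.90 to 9.55 in each array. The 3 kidney markers, the 3 measured B cell markers and the 4 measured T cell markers all lay at or under it. The 4 adipocyte markers (Adipoq, Plin1, Cidec and Fabp4) all lay above the floor. Their mean ran from 6.6 to 7.2 in the controls and from 6.6 to 7.3 in the withdrawal arrays. It ran from 6.4 to 7.6 at day 3 and from 6.5 to 6.9 at day 7, and its part in these results was not tested. RNA of a whole gland was measured, so a change in the number of dividing cells and a change in RNA per cell cannot be told apart.

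In outline, 1 of the 42 genes (2.38%) passed the test at withdrawal against control, where 4.3% of all genes did. From withdrawal to day 3, 3 of the 42 rose (7.14%, against 1.37% of all genes). The means of most members stood higher at day 3 than in every other group. Averaged over the 42 members, the 4 day 3 arrays lay at 4.22 to 4.45. The controls lay at 4.04 to 4.18, the withdrawal arrays at 3.93 to 4.12 and the day 7 arrays at 3.99 to 4.18. All 4 day 3 arrays were thus above each of the other 11 arrays. The day 3 group had the highest group mean for 33 of 42 members, the withdrawal group for 4, the control group for 3 and the day 7 group for 2. Neither this count nor the order of the array means was worked out over all genes. The median member differed by 0.25 between day 3 and withdrawal, and by 0.25 between day 3 and control. For all genes these medians were -0.005 and -0.003.

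**Figure D1:**
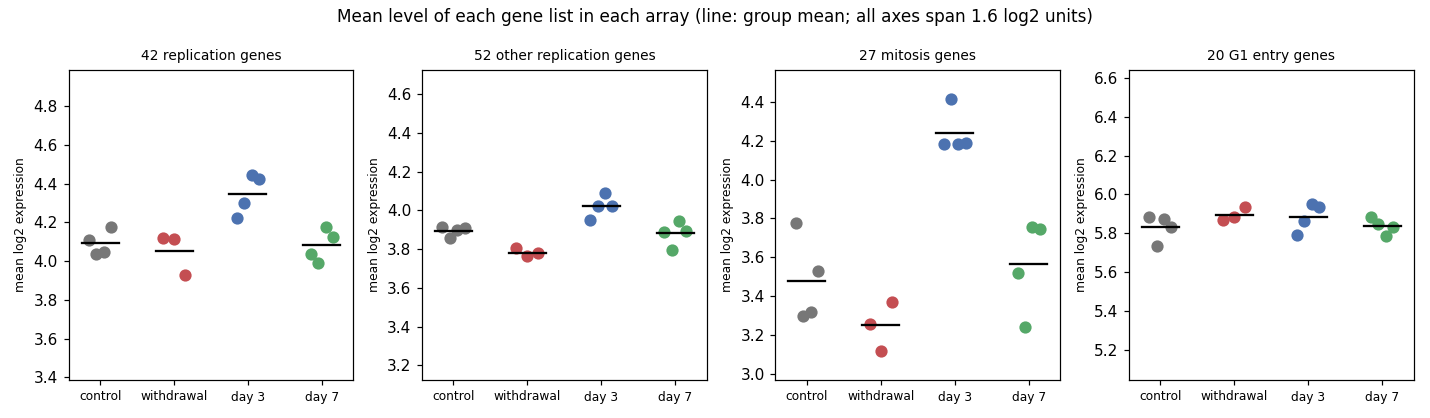
Mean log2 expression (vertical axis, a span of 1.6 units in each panel) of 4 gene lists in each array, by group on the horizontal axis; points are arrays and lines are group means. The 42 replication genes reach 4.22 to 4.45 at day 3 and stay at or under 4.18 elsewhere, and the 27 mitosis genes reach 4.18 to 4.42 at day 3 and at most 3.78 elsewhere.

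At withdrawal, 1 of the 42 members was called against control, Cdc45, which fell; 0 rose and 41 did not pass. Of all genes, 4.3% were called in this comparison, against 2.38% of the members, and 1.81% were called lower. Their median difference was -0.01, and 21 of 42 had a higher mean than in control, against 48.7% of all genes. That split rested on the scaling: 8 of 42 had a higher mean after per-array median centring, with a median of -0.12, and 16 of 42 after a further quantile normalization. Centring used each array's median over the 21439 genes, not the median over all probe sets given above. After centring, the all-gene median was shifted by -0.11 here. The calls over all genes went from 534 higher and 387 lower to 341 and 853 after centring, and to 421 and 462 after quantile normalization. At an unadjusted p under 0.05 the members gave 1 higher and 1 lower, against 9.74% and 7.27% of all genes. All withdrawal arrays lay below all controls for Cdc45 and Dtl, an order that 6.94% of all genes had; Dtl differed by -0.42 (limma, adjusted p = 0.333).

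Cdc45, the subunit that joins the MCM ring and GINS in the active helicase (probe set 17328978), was the 1 member called in both comparisons with withdrawal up to day 3. It read 3.49, 3.29, 3.53 and 3.39 in the controls and 2.67, 2.92 and 2.27 in the withdrawal arrays. At day 3 it read 3.74, 3.35, 3.76 and 3.29, and at day 7 3.31, 2.93, 3.49 and 4.01. All 3 withdrawal arrays lay below all 4 controls and all 4 arrays of each recovery time. The withdrawal level differed from control by -0.80 ± 0.21, 1.75-fold lower (limma, adjusted p = 0.0465), and day 3 from withdrawal by 0.92 ± 0.21, 1.89-fold higher (adjusted p = 0.037). Both differences use the same 3 withdrawal arrays. The fall against control passed in 2 of the 15 fits without 1 array, those without day 7 replicate 2 or 4, with differences from -0.95 to -0.63 and a highest adjusted p of 0.184 without withdrawal replicate 3. The rise at day 3 passed in 7 of the 15, with differences from 0.74 to 1.06 and a highest adjusted p of 0.15, again without withdrawal replicate 3; the 8 fits in which it was lost were those without control replicate 3 or 4, any withdrawal array, or day 3 replicate 1, 2 or 3. With the replicate number as a block the adjusted p was 0.12 and 0.107, and for the rise 0.0751 with only the 2 groups in the fit. At day 7 Cdc45 differed from withdrawal by 0.81 ± 0.21 (adjusted p = 0.0699) and from control by 0.01, with a 95% interval of -0.41 to 0.43.

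The RefSeq promoter window of Cdc45 (GRCm38.p6, chr16:18811923-18812222, minus strand, 250 bases before to 50 after the start site) is shown as the promoter of the member that both fell and rose. Capitals here and below mark matches to E2F-type letters, searched as TTTCCCGC, TTTCGCGC, TTTGCCGC and TTTGGCGC on both strands, each match counted even where it overlaps another. None of those letters is in this window, which held 2 matches to CCAAT and 2 to TTTGAA.
Cdc45: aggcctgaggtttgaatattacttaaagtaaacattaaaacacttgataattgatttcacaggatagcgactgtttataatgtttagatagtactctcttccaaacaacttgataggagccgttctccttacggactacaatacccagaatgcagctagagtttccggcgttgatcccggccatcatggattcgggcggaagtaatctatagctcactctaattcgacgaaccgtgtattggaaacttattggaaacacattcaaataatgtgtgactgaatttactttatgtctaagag

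By day 3 after withdrawal 3 of 42 members had risen, Uhrf1, Dtl and Cdc45, 0 had fallen and 39 did not pass. Of all genes 2.25% were called and 1.37% were called higher, against 7.14% of the members. The median member differed by 0.25, while the median of all genes was -0.01, and 36 of 42 members (85.7%) had a higher mean than at withdrawal, against 48.8% of all genes. All day 3 arrays lay above all withdrawal arrays for 9 members (21.4%), against 6.39% of all genes, and 0 members lay entirely below. Among genes with a mean above the floor, 6.06% of the 33 members there were called higher, against 2.57% of all such genes. For 24.2% of these 33 all day 3 arrays lay above all withdrawal arrays, against 9.81%. An unadjusted p under 0.05 was reached by 12 members, all higher, against 6.46% of all genes in that direction. Under median centring 38 of 42 means were higher and under quantile normalization 37. Calls fell from 3 to 1, Dtl alone, without withdrawal replicate 1, 2 or 3 or without day 3 replicate 2, with only the 2 groups in the fit, and with the replicate block. Withdrawal replicate 3 was the lowest of its group for 26 of the 42 members, and without it 31 of 42 means were higher with a median of 0.18.

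**Figure D2:**
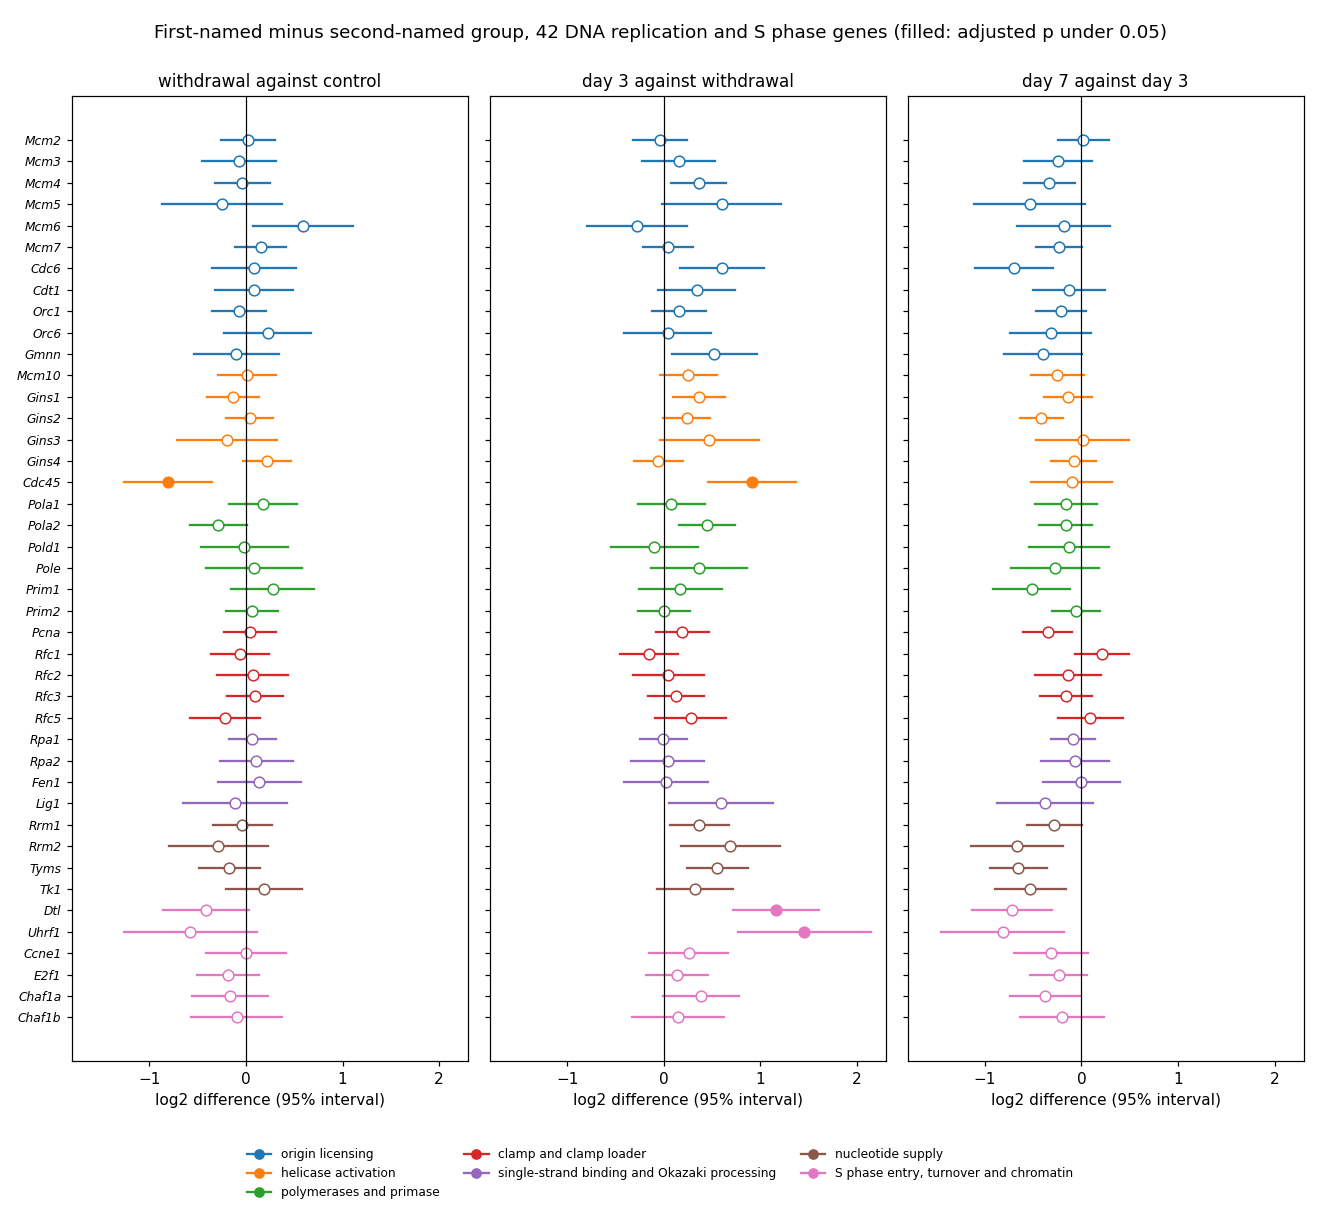
Log2 difference (horizontal axis) with its 95% interval for each of the 42 members (vertical axis, coloured by role) in 3 comparisons; filled points have an adjusted p under 0.05 (limma). Cdc45 is filled at -0.80 for withdrawal against control, Uhrf1, Dtl and Cdc45 are filled at 1.46, 1.16 and 0.92 for day 3 against withdrawal, and 0 points are filled for day 7 against day 3.

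Genes of S phase regulation and chromatin copying held the largest rises. Uhrf1, which recognises half-methylated DNA behind the fork and brings in the maintenance methyltransferase (probe set 17338747), read 3.78, 2.42, 3.13 and 2.58 in control and 2.33, 2.62 and 2.25 at withdrawal. It read 3.05, 3.81, 4.38 and 4.19 at day 3 and 2.64, 3.03, 3.18 and 3.34 at day 7. The day 3 arrays were all above the withdrawal arrays, while control replicates 1 and 3 and day 7 replicates 3 and 4 lay within the day 3 range. The rise from withdrawal to day 3 was 1.46 ± 0.32 (limma, adjusted p = 0.0278), with a 95% interval of 0.77 to 2.15. The withdrawal mean, 2.40, is near the floor, so no fold is given. It passed in 9 of the 15 fits without 1 array, with differences from 1.28 to 1.73; the 6 that lost it were those without any withdrawal array or without day 3 replicate 2, 3 or 4 (highest adjusted p 0.094, without withdrawal replicate 3). The adjusted p was 0.0861 with the replicate block and 0.0707 with only the 2 groups in the fit. Against control, day 3 differed by 0.88 ± 0.30 (adjusted p = 0.304).

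Dtl, the substrate adaptor of the ubiquitin ligase that destroys Cdt1 on PCNA-bound DNA (probe set 17231066), read 1.92, 2.00, 1.75 and 1.98 in control and 1.66, 1.71 and 1.11 at withdrawal. It read 2.88, 2.65, 2.25 and 2.86 at day 3 and 2.15, 1.37, 1.98 and 2.26 at day 7. The lowest day 3 array was above all withdrawal and control arrays but overlapped day 7. The rise of 1.16 ± 0.21 (limma, adjusted p = 0.00867), passed in each of the 22 alternatives in which Dtl was tested, with differences from 0.97 to 1.30 and adjusted p from 0.00328 to 0.0463. A filter on dim genes left it out. Its group mean was above the floor at day 3 alone, and the difference is measured against groups near it, so no fold is given. Against control, day 3 differed by 0.75 ± 0.19 (adjusted p = 0.154).

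The promoter windows of these genes are shown because both genes rose and each has 1 window with an E2F-type match. For Dtl (GRCm38.p6, chr1:191575495-191575794, minus strand) the letters TTTGGCGC begin at position -8 from the start site. For Uhrf1, RefSeq gives 2 start sites; the window shown (chr17:56304063-56304362, plus strand) holds TTTCGCGC at -185, and the other (chr17:56303087-56303386) holds none.
Dtl: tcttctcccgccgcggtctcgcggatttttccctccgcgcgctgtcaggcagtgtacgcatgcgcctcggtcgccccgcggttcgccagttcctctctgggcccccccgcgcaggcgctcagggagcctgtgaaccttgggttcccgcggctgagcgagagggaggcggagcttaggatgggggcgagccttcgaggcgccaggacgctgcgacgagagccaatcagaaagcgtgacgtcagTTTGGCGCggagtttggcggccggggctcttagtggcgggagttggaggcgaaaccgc
Uhrf1: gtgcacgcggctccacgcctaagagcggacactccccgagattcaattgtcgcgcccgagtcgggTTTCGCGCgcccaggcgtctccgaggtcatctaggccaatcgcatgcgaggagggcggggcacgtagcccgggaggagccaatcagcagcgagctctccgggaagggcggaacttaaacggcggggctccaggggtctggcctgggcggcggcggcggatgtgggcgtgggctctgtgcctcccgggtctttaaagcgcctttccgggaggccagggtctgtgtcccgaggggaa

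The other 4 members of this role did not pass between withdrawal and day 3. E2f1, a transcription factor that drives entry into S phase, read 2.48, 2.22, 2.74 and 2.10 in the controls and 2.24, 2.22 and 2.14 in the withdrawal arrays, then 2.65, 2.32, 2.27 and 2.12 at day 3 and 2.18, 2.23, 1.92 and 2.09 at day 7. Its mean was near the floor in all 4 groups, and the groups overlapped (difference 0.14, 95% interval -0.18 to 0.46, adjusted p = 0.762). Ccne1, cyclin E1, the partner of Cdk2 at the start of S phase, read 2.40, 2.71, 2.71 and 2.62 in control and 2.10, 3.06 and 2.68 at withdrawal. It read 2.50, 3.07, 2.96 and 2.93 at day 3 and 2.38, 2.40, 2.71 and 2.71 at day 7, and the withdrawal arrays spanned nearly the whole range (difference 0.26, interval -0.15 to 0.67, adjusted p = 0.624). The histone chaperone subunits Chaf1a and Chaf1b, which place new histones behind the fork, differed by 0.39 (adjusted p = 0.369) and 0.15 (0.848).

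**Figure D3:**
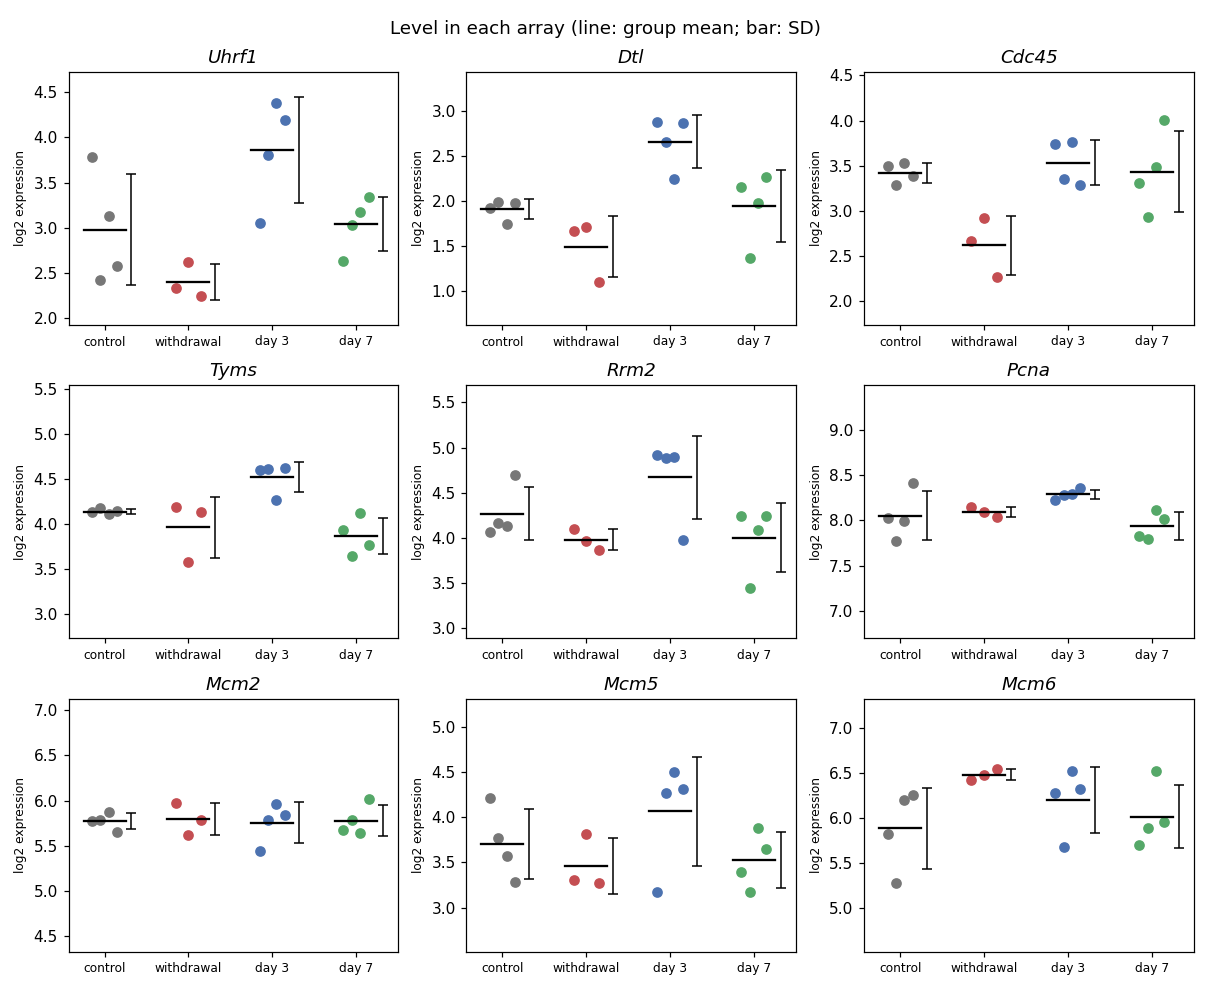
Log2 expression (vertical axis, a span of 2.8 units in each panel) of 9 members in each of the 15 arrays, by group on the horizontal axis; points are arrays, lines are group means and bars are SD. Dtl and Tyms show all 4 day 3 arrays above all 3 withdrawal and all 4 control arrays, while Mcm2 stays between 5.44 and 6.01 throughout.

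Enzymes of nucleotide supply were the role with the highest median at day 3, at 0.46 over 4 genes, although 0 of the 4 were called. Tyms, thymidylate synthase, was the closest to the threshold and is shown for that reason, after its values were seen. It read 4.13, 4.17, 4.11 and 4.14 in the controls and 4.19, 3.58 and 4.13 in the withdrawal arrays, then 4.59, 4.61, 4.27 and 4.62 at day 3 and 3.94, 3.65, 4.12 and 3.77 at day 7. The day 3 arrays lay above all arrays of every other group, and the difference from withdrawal was 0.56 ± 0.15 (limma, adjusted p = 0.0706). It was 0.36 without withdrawal replicate 2, and it passed under median centring, with the filter on dim genes and without day 3 replicate 3.

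Ribonucleotide reductase makes the deoxynucleotides, and its small subunit Rrm2 is the one made mainly in S phase. Rrm2 read 4.07, 4.16, 4.13 and 4.70 in the controls and 4.10, 3.97 and 3.87 in the withdrawal arrays, then 4.92, 4.88, 4.90 and 3.97 at day 3 and 4.24, 3.44, 4.09 and 4.24 at day 7. Day 3 replicate 4 lay with the withdrawal arrays and the other 3 day 3 arrays lay above all others; the difference was 0.69 ± 0.24 (limma, adjusted p = 0.183), and 0.92 without that array (adjusted p = 0.0382). The large subunit Rrm1 read 5.91, 5.41, 5.93 and 6.09 in the controls and 5.72, 5.92 and 5.75 in the withdrawal arrays, then 5.91, 6.34, 6.23 and 6.19 at day 3 and 5.80, 5.93, 5.93 and 5.89 at day 7. It differed by 0.37 ± 0.14 (adjusted p = 0.242), with day 3 replicate 1 just under the highest withdrawal array. Tk1, the thymidine salvage kinase, differed by 0.33 ± 0.18 (adjusted p = 0.473).

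Origin licensing genes, 11 in number, included 0 called in any of the 6 comparisons, and the 6 subunits of the MCM ring had day 3 differences from withdrawal of -0.28 to 0.60. Mcm2 read 5.78, 5.78, 5.87 and 5.65 in the controls and 5.98, 5.62 and 5.78 in the withdrawal arrays, then 5.44, 5.78, 5.96 and 5.84 at day 3 and 5.67, 5.78, 5.64 and 6.01 at day 7. The 4 groups overlapped, and day 3 differed from withdrawal by -0.04, with a 95% interval of -0.32 to 0.24. Mcm3 read 5.33, 5.10, 5.54 and 5.38 in the controls and 5.33, 5.43 and 5.04 in the withdrawal arrays, then 5.09, 5.33, 5.75 and 5.52 at day 3 and 5.04, 5.54, 5.27 and 4.85 at day 7. The groups overlapped here too (difference 0.15, interval -0.23 to 0.53).

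Among the 6 subunits, Mcm4 and Mcm5 had the largest day 3 differences from withdrawal. Mcm4 read 5.84, 5.43, 5.63 and 5.63 in the controls and 5.72, 5.57 and 5.50 in the withdrawal arrays, then 5.86, 6.00, 6.01 and 5.96 at day 3 and 5.50, 5.45, 5.53 and 6.02 at day 7. The day 3 arrays lay above all control and withdrawal arrays, and day 7 replicate 4 was level with the highest of them; the difference from withdrawal was 0.36 ± 0.13 (limma, adjusted p = 0.211). Mcm5 read 4.21, 3.77, 3.57 and 3.29 in the controls and 3.30, 3.81 and 3.27 in the withdrawal arrays, then 3.17, 4.27, 4.50 and 4.31 at day 3 and 3.40, 3.17, 3.88 and 3.65 at day 7. Day 3 replicate 1 was the lowest of all 15 arrays and the other 3 were the highest; the difference of 0.60 had an interval of -0.01 to 1.22 (adjusted p = 0.377).

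Mcm6 and Mcm7 had other patterns. Mcm6 read 5.82, 5.27, 6.20 and 6.25 in the controls and 6.42, 6.48 and 6.54 in the withdrawal arrays, then 6.28, 5.68, 6.52 and 6.32 at day 3 and 5.70, 5.89, 6.52 and 5.96 at day 7. It was the 1 member whose withdrawal arrays all lay above all controls, by 0.59 ± 0.24 (limma, adjusted p = 0.216), where 8.15% of all genes had that order, and its day 3 mean was below withdrawal by 0.28. Mcm7 read 4.68, 4.52, 4.64 and 4.88 in the controls and 4.81, 4.98 and 4.70 in the withdrawal arrays, then 4.71, 4.70, 4.97 and 5.14 at day 3 and 4.71, 4.54, 4.65 and 4.69 at day 7. Its groups overlapped, with a difference of 0.05 (interval -0.21 to 0.31) between day 3 and withdrawal; 2 further probe sets that name Mcm7 together with a microRNA gene were not used.

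E2F-type letters stood in the promoter windows of Mcm3, Mcm5, Mcm6 and Mcm7. The sites are shown because these subunits differed in pattern: 1 per gene, in gene orientation, with capitals on the match, which for Mcm3 and Mcm7 is on the opposite strand; coordinates are GRCm38.p6 and positions count from the start site. Mcm3 has matches at 20 and 39, Mcm5 at -153 and -149, Mcm6 at -110, -106 and -47, and Mcm7 at -165 and 17, and the adjacent pairs of Mcm5 and Mcm6 overlap. The Mcm2 window and a further Mcm7 window held 0, and no window was found for Mcm4.
Mcm3 (chr1:20820275-20820304): aaacttccgtgGCGGGAAAacttgggaagt
Mcm5 (chr8:75109345-75109374): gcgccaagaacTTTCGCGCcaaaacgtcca
Mcm6 (chr1:128359734-128359763): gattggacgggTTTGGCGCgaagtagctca
Mcm7 (chr5:138172030-138172059): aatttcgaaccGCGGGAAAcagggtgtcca

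Among the loaders and their brake, Gmnn, which holds Cdt1 after licensing, read 4.64, 5.30, 5.43 and 5.29 in the controls and 5.13, 5.20 and 4.87 in the withdrawal arrays, then 5.80, 5.25, 5.58 and 5.73 at day 3 and 5.42, 5.16, 5.46 and 4.73 at day 7. All day 3 arrays were above all withdrawal arrays, with overlap against control and day 7 (difference 0.52 ± 0.21, limma, adjusted p = 0.254). Cdc6, which helps load the MCM ring, had group means of 1.59 in the controls and 1.67 in the withdrawal arrays, then 2.27 at day 3 and 1.58 at day 7, all near the floor. Its day 3 mean was above withdrawal by 0.61 (adjusted p = 0.166) and above control by 0.68 (0.187). Cdt1 differed by 0.34 (0.462), Orc1 by 0.16 (0.659) and Orc6 by 0.04 (0.967) between day 3 and withdrawal.

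The remaining helicase and fork genes stayed under the threshold in every comparison. Of the GINS subunits, which complete the helicase with Cdc45, Gins1 differed by 0.37 between day 3 and withdrawal (limma, adjusted p = 0.17), Gins3 by 0.47 (0.414), Gins2 by 0.24 (0.377) and Gins4 by -0.05 (0.907). Mcm10, which helps activate it, differed by 0.25 near the floor. Polymerases and primase had a median of 0.13 over 6 genes. They ran from Pold1, a subunit of polymerase delta, at -0.10 to Pola2, a subunit of polymerase alpha, at 0.45. For Pola2 all day 3 arrays lay above all withdrawal arrays (adjusted p = 0.122).

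Pcna, the sliding clamp (probe set 17391971), read 8.02, 7.77, 7.999 and 8.42 in the controls and 8.15, 8.10 and 8.04 in the withdrawal arrays, then 8.23, 8.28, 8.29 and 8.36 at day 3 and 7.83, 7.80, 8.11 and 8.01 at day 7. The day 3 arrays lay above all withdrawal and day 7 arrays, while control replicate 4 was the highest of all 15. The difference from withdrawal was 0.19, with an interval of -0.08 to 0.47 (limma, adjusted p = 0.56). The clamp loader subunits Rfc1, Rfc2, Rfc3 and Rfc5 differed by -0.16 to 0.28 and the single-strand binding subunits Rpa1 and Rpa2 by -0.002 and 0.04. Lig1, the ligase that seals Okazaki fragments, differed by 0.60 (adjusted p = 0.298), with all day 3 arrays above all withdrawal and control arrays. Fen1, which trims those fragments, differed by 0.03, and its other probe set by 0.31 (adjusted p = 0.614); for Pole the probe set used differed by 0.36 and the other by 0.05 (0.956), all of them near the floor.

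**Figure D4:**
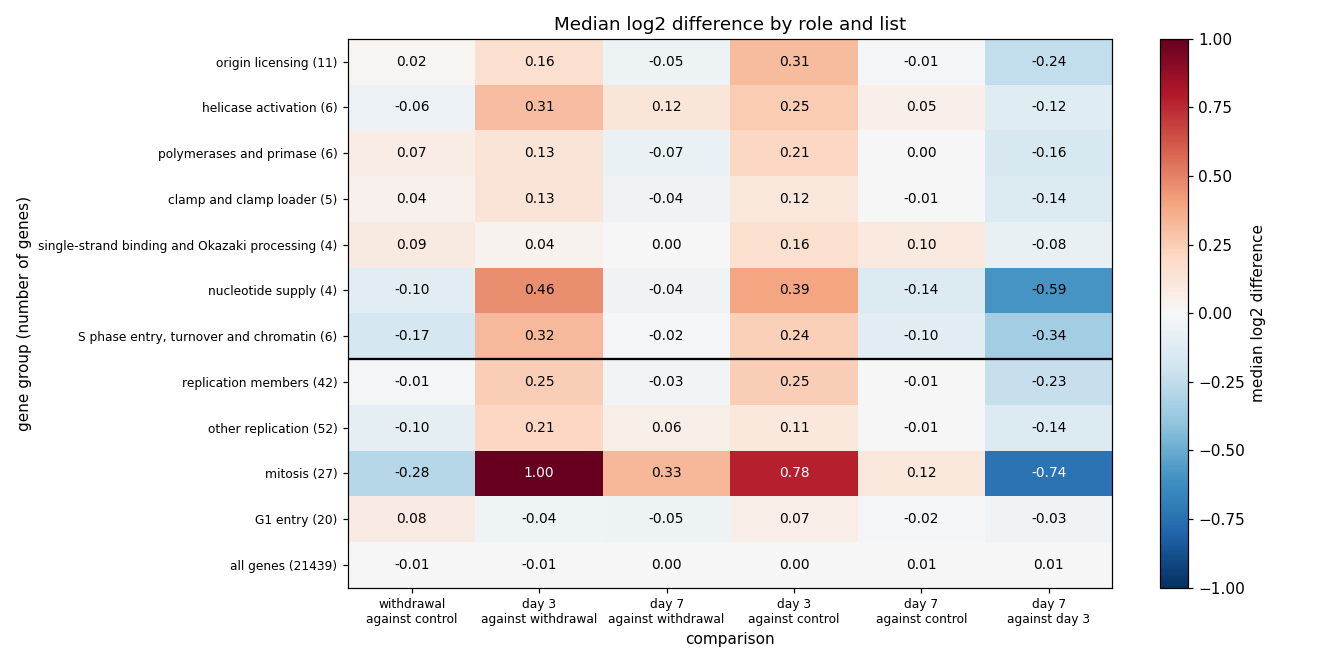
Median log2 difference (colour and printed value) for 7 roles of the 42 members, above the line, and for whole lists, below it (vertical axis, with the number of genes), in 6 comparisons (horizontal axis). Nucleotide supply shows 0.46 for day 3 against withdrawal and -0.59 for day 7 against day 3, while all genes stay within 0.01 of 0.

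Against untreated glands, day 3 had 0 of 42 members called (limma), and 11 reached an unadjusted p under 0.05, all with a higher mean, where 5.28% of all genes did so. Of all genes 0.131% were called in this comparison, 19 higher and 9 lower, with 18 and 35 after median centring and 12 and 11 after quantile normalization. The means of 38 of 42 members (90.5%) were above control, against 49.2% of all genes, with 34 under median centring and 36 under quantile normalization. All day 3 arrays lay above all controls for 6 members (14.3%, against 2.75% of all genes): Mcm4, Gins2, Cdc6, Lig1, Tyms and Dtl. The largest differences were those of Uhrf1, Dtl and Cdc6, given above, and Tk1 followed at 0.51 ± 0.17 (adjusted p = 0.295).

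From day 3 to day 7 the members' means went down, by a median of -0.23, in 38 of 42 genes, while 52.1% of all genes had a higher mean at day 7, again with 0 called (limma), as for all genes (0.0%). An unadjusted p under 0.05 was reached by 11 members, all lower, against 3.41% of all genes in that direction. All day 7 arrays lay below all day 3 arrays for 4 members (9.52%, against 1.74% of all genes), namely Tyms (-0.65 ± 0.14, adjusted p = 0.247), Cdc6 (-0.70 ± 0.19, 0.384), Gins2 (-0.42 ± 0.11, 0.361) and Pcna (-0.35 ± 0.12, 0.515). Among genes above the floor, this order held for 9.09% of members and 2.42% of all. Uhrf1 differed by -0.81 ± 0.30 and Dtl by -0.72 ± 0.19. These sizes share the day 3 arrays with the comparisons above.

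At day 7 the members stood near control, with a median difference of -0.01 and 20 of 42 higher means, against 51.5% of all genes (14 under median centring, 16 under quantile normalization). Here 0 were called (limma), where 0.0187% of all genes were, and 0 reached an unadjusted p under 0.05, where 5.95% did. The differences from control ran from -0.28 for E2f1 to 0.30 for Cdt1. Against withdrawal, day 7 had 0 members called (limma) and 3 higher at an unadjusted p under 0.05 (Cdc45, Dtl and Rfc5), where 1.88% and 6.31% of all genes were. The median member differed by -0.03, and 19 of 42 means were higher, against 51.1% of all genes, with 26 under median centring and 22 under quantile normalization. The calls over all genes were 210 higher and 194 lower, and 391 and 134 after centring. Cdc45 was called there under median centring, with the filter on dim genes and without day 7 replicate 2. The withdrawal arrays are shared with the other comparisons.

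Other genes of the same process were described in the same way. Of 58 further replication and S phase genes, 52 were measured and the others are not analysed here. Between withdrawal and day 3, 4 of the 52 rose, 0 fell and 48 did not pass, with a median of 0.21; 7.69% were called higher, against 1.37% of all genes. Pclaf, a PCNA-bound factor, rose by 1.22 ± 0.21 (limma, adjusted p = 0.00674). The chromatin ATPases Atad2 and Hells rose by 0.63 ± 0.12 (0.0136) and 0.55 ± 0.13 (0.0387). At withdrawal 2 had fallen against control (3.85%, against 1.81% of all genes), the activator E2f3 by 0.66 ± 0.17 (0.0414) and the maintenance methyltransferase Dnmt1 by 0.47 ± 0.13 (0.0484). The members and this list were tested in the same fit, and 0 of the 52 were called in the other 4 comparisons.

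Of 20 genes of G1 and cell cycle entry (D cyclins, their kinases, Rb family, kinase inhibitors and Myc), 0 were called in any of the 6 comparisons (limma), with 4, 4, 2, 1, 0 and 2 at an unadjusted p under 0.05. In the same order (withdrawal against control, day 3 and day 7 against withdrawal, day 3 and day 7 against control, day 7 against day 3), 17.0%, 13.9%, 13.5%, 10.0%, 5.95% and 7.07% of all genes reached it. Their median differed by -0.04 between withdrawal and day 3. Of the mitosis genes, 16 of 27 measured rose from withdrawal to day 3 (59.3%, against 1.37% of all genes), with a median of 1.00. For 24 of 27 (88.9%, against 6.39% of all genes) all day 3 arrays lay above all withdrawal arrays. At withdrawal 4 of the 27 (14.8%, against 48.7% of all genes) had a higher mean than in control, with a median of -0.28 and 0 called. Mki67, the proliferation antigen, rose by 1.25 ± 0.22 (adjusted p = 0.00705) and Top2a, the topoisomerase that untangles sister chromatids, by 1.32 ± 0.22 (0.00521). The difference between the lists was not tested.

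The members' promoters were also described by the letters they hold. Windows were found for 34 of the 42 members, 39 windows in all, and 14 of these 39 (35.9%) held an E2F-type match, against 2.26% of all 32851 windows. The mitosis list had such a match in 1 of 26 windows (3.85%), while TTTGAA, the letters of the cell cycle homology region, stood in 73.1% of its windows, 10.3% of the members' and 17.9% of all. CCAAT stood in 61.5% of the members' windows, 73.1% of the mitosis windows and 37.4% of all. The E2F-type share was not particular to the members. In the further replication list 20 of 55 windows (36.4%) held such a match, 21.8% held TTTGAA and 50.9% held CCAAT. The lists were chosen by function, and with earlier results of these data known. Matches are descriptions of letters and not of bound sites, and a window is counted once per start site.

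Markers of other cell types moved between the same groups, and their part in these results was not tested. For comparison, 2.49% of all genes were called higher and 1.81% lower at withdrawal against control. From withdrawal to day 3, 1.37% were called higher and 190 of 21439 lower. At day 7, 194 of 21439 were called lower than at withdrawal. The mean over 8 macrophage markers (Cd68, Adgre1, Csf1r, Mpeg1, Lyz2, C1qa, C1qb and C1qc, all above the floor) lay at 6.00 to 6.16 in control and 7.07 to 7.42 at withdrawal. It lay at 6.36 to 6.81 at day 3 and 6.24 to 6.75 at day 7; 8 of 8 rose at withdrawal and 5 of 8 fell by day 3. The 7 endothelial markers (Pecam1, Cdh5, Kdr, Tek, Emcn, Erg and Plvap, all above the floor) lay at 7.00 to 7.20 in the controls and 6.67 to 6.79 in the withdrawal arrays, then 7.01 to 7.22 at day 3 and 6.94 to 7.22 at day 7. Of these 1 fell at withdrawal and 2 rose by day 3. Of the 7 cortex markers 4 fell at withdrawal and 3 rose by day 3, and the cortex mean was 8.90 to 9.07 at withdrawal and 9.35 to 9.55 at day 3. The 6 chromaffin markers (Th, Dbh, Pnmt, Chga, Chgb and Ddc, all above the floor) lay at 8.97 to 9.42 in the controls and 9.50 to 9.61 in the withdrawal arrays, then 9.27 to 9.75 at day 3 and 8.94 to 9.62 at day 7. Of these 1 rose at withdrawal, 0 were called between withdrawal and day 3, and 1 was lower at day 7 than at withdrawal. The 5 fibroblast and capsule markers (Col1a1, Col1a2, Pdgfra, Dcn and Lum, all above the floor) lay at 6.46 to 6.63 in the controls and 6.51 to 7.01 in the withdrawal arrays, then 6.14 to 6.49 at day 3 and 6.09 to 6.42 at day 7. With 0 of 5 called (limma), 5 of 5 had a higher mean at withdrawal than in control, 2 at an unadjusted p under 0.05, and 5 of 5 a lower one at day 3 than at withdrawal, 4 at that p. Of all genes, 48.7% had a higher mean at withdrawal, and 9.74% were higher at that p. From withdrawal to day 3, 10984 of 21439 genes had a lower mean, 1585 at that p.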

How the data were processed

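Affymetrix arrays of 15 mouse adrenal RNA samples were analysed from the series' value table. The deposited values are log2 expression. The submitters' processing notes name RMA and oligo as what the authors used; no source used here gives versions, annotation level or filters. RMA equalises array distributions, so a shift common to most genes would not be seen, and its floor compresses low levels.

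Of 32736 probe sets, the platform annotation gave 22399 a single symbol, and these were used; it named several genes for 1607 and no gene for 8730. The probe set with the highest mean was kept for each gene. Entrez identifiers matched RefSeq (GRCm38.p6) for 22261 probe sets. Groups came from the sample titles. All 15 arrays entered 1 limma 3.58.1 model (R 4.3.3, lmFit and eBayes, 4 groups, 6 contrasts). Benjamini-Hochberg adjustment ran over all 21439 genes, with a threshold of 0.05. The fitting code was run on simulated arrays with independent noise and contrasts against control only. That run did not cover contrasts between treated groups. Promoter windows are RefSeq's. The number of arrays limits precision, and nothing but the word biological in the titles says that samples came from separate animals; p-values measure the spread between these samples.

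The members and lists were chosen with earlier results of these data known. Values by array are given for members called in any comparison and for 12 others listed by name (Pcna, Mcm2 to Mcm7, Rrm1, Rrm2, E2f1, Ccne1 and Gmnn), with Tyms added later. Alternatives were per-array median centring, further quantile normalization, a filter on genes under the median, other choices of probe set, eBayes with trend and robust options, only the 2 groups compared, the replicate number as a block, and each array left out. The values of 1 called gene of the further replication list are not reported here.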

Additional observations from a re-analysis of the deposited data

Results flagged for a closer look

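In groups of 4 arrays, 1 array lay far from the other 3 in a few places, where the gap to the nearest array took most of the group's range. Chance gives this in about 1 in 20 groups, and 51 groups were examined. For Mcm4, day 7 replicate 4 read 6.02 against 5.45 to 5.53 in the others. For Mcm5, day 3 replicate 1 read 3.17 against 4.27 to 4.50. For Rrm2, control replicate 4 read 4.70 against 4.07 to 4.16, and day 3 replicate 4 read 3.97 against 4.88 to 4.92. For Tyms, day 3 replicate 3 read 4.27 against 4.59 to 4.62.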

How the results depend on the processing

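Each result was recomputed under 23 alternatives, or 22 for the members that the filter on dim genes leaves out. For day 3 against control, day 7 against control and day 7 against day 3, the count of members called was 0 in each. For withdrawal against control the count of 1 became 0 with the replicate block, where all genes gave 544 calls in place of 921 (524 with only the 2 groups in the fit), and lay between 0 and 1 over the fits without 1 array; the median moved from -0.01 to -0.12 with per-array median centring. For day 3 against withdrawal the count of 3 became 1, Dtl, with only the 2 groups in the fit and with the replicate block, where all genes gave 161 and 257 calls in place of 483, and lay between 1 and 3 without 1 array. Tyms passed in place of Dtl with the filter on dim genes and beside the other 3 with median centring. For day 7 against withdrawal the count of 0 became 1, Cdc45, with median centring and with the filter on dim genes, and lay between 0 and 1 without 1 array. The other median differences moved by less than the spread between arrays (0.08) in each of the 23, and 0 called members changed direction. Replicate numbers did not pair the samples: deviations of same-numbered arrays correlated at -0.14 to 0.06 over 21 pairs, and 0 of 15 arrays correlated best with an array of its own number. The cause of these changes was not tested. For 9 members near the floor the depth of signal limits what can be seen of a fall.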
